A study of Mus musculus with 6 samples.

Results

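The stefin A genes of mouse chromosome 16 are described here in leukemia exposed to the chemokine CCL5 and in leukemia kept under control conditions. They are Stfa1, Stfa2, Stfa3, Stfa2l1, Gm5416 and Gm5483, taken by name from the deposited count table. All 6 symbols were present among the 23337 genes of the table, and 5 of the 6 passed the filter on low counts, Gm5416 being the gene that did not. The set was chosen by its counts in these same libraries, so levels and differences between groups are given as a description, with no test.

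Polyadenylated RNA of a neonatal mouse leukemia was sequenced in 6 libraries, 3 treated with CCL5 (labelled ccl5) and 3 kept as controls. The series title places the leukemia among those with a rearranged MLL gene, which all 6 libraries share. The labels assign ccl5 replicate 1 to a tertiary transplant, and ccl5 replicates 2 and 3 and control replicate 3 to a primary transplant. They name no transplant for control replicates 1 and 2, and no dose, time, MLL fusion partner, mouse strain or host. Whether the 3 libraries of a group are separate animals or cultures is not stated, so the spread between them may be in part technical.

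Stefins belong to the cystatin superfamily and are small inhibitors, mostly found inside the cell, that block cysteine cathepsins, the papain-like proteases of the lysosome. In humans stefin A (cystatin A) is best known from skin keratinocytes and from white blood cells. Mice carry a cluster of closely related stefin A copies, several of which are known as transcripts of neutrophils and their bone marrow precursors.

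The 6 genes lie within 299 kb of chromosome 16 (36156811 to 36455392, mm10), in the order Stfa2l1, Gm5483, Gm5416, Stfa1, Stfa2 and Stfa3. The first 4 are annotated on the forward strand and Stfa2 and Stfa3 on the reverse strand, and each has 3 exons. To show how alike the copies are where transcription starts, the 120 bases from 90 before to 30 after each annotated start are printed below from RefSeq promoter sequences (GRCm38.p6), which were found for 6 of 6 genes. Capitals mark the 2 longest strings of letters that the promoters of all 6 genes share.
Stfa2l1, chr16:36156721-36156840, forward strand: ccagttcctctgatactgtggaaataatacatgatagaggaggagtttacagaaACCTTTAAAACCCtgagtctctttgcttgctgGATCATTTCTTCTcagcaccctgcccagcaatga
Gm5483 (RefSeq Cstdc4), chr16:36184122-36184241, forward strand: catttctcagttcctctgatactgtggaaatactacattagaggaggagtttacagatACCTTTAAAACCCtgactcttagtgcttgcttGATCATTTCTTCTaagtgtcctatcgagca
Gm5416 (RefSeq Csta3), chr16:36210313-36210432, forward strand: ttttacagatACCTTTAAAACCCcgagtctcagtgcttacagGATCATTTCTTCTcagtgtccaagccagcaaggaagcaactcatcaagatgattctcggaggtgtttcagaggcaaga
Stfa1, chr16:36277058-36277177, forward strand: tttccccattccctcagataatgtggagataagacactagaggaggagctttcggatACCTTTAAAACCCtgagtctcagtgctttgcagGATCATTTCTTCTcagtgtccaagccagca
Stfa2, chr16:36408334-36408453, reverse strand: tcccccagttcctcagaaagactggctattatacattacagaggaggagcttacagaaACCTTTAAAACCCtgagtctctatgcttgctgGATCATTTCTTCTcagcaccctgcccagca
Stfa3, chr16:36455363-36455482, reverse strand: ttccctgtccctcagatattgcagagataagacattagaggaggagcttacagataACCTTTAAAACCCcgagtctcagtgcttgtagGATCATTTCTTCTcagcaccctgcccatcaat

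Both capitalised strings are 13 bases long, ACCTTTAAAACCC and GATCATTTCTTCT. They were picked after the 6 promoters had been compared. Searched on the gene's own strand, each occurred in 9 of 32851 RefSeq promoter windows of 300 bases (0.0274%). The 9 windows were the same for both strings, and all lay in this cluster: the 6 genes above and their neighbours Cstdc3, Cstdc5 and Gm7260. With the annotated first base counted as 0, the first string began between -36 and -32 in 5 of the genes and at -80 in Gm5416. The second began between -4 and 0 in the same 5 genes and at -48 in Gm5416. The deposited exons of Gm5416 add up to 294 bases, which equals its coding length, while those of the other 5 genes add up to between 412 and 423 bases.

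A few short motifs were looked up on both strands of the same 300 bases. TTTAAAA, which lies inside the first shared string, occurred in 6 of the 6 promoters and in 8.74% of all promoters. TATAAA, the usual TATA box, occurred in 0 of the 6 and in 13.6% of all promoters. TTGCNNAA, a motif of C/EBP factors, occurred in Stfa1 and Gm5416 and in 10.8% of all promoters. GAGGAA, a core motif of PU.1, occurred in 5 of the 6, Gm5416 being without it, and in 28.3% of all promoters. The 300-base windows were also aligned in pairs, and identity was taken over aligned bases with gaps left out. Among the 6, Stfa2 and Stfa2l1 were the most alike pair, with 92.9% identity over 296 aligned bases. Stfa2 and Gm5483 were the least alike, with 74.7% over 288.

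The copies are also close within the transcript, which bears on how reads were assigned. Over aligned bases, gaps left out, coding sequences of the 6 genes were between 80.6% and 96.5% identical in pairs. Stfa2 and Stfa2l1 were again the closest pair. Nearer relatives sit outside the 6. Stfa1 was 98.0% identical to BC100530 (RefSeq Cstdc5) over 294 aligned bases and 96.5% to BC117090 (RefSeq Cstdc6) over 289. The Stfa1 coding sequence used was 387 bases long, so part of it was not compared. Gm5483 was 96.9% identical to 2010005H15Rik (RefSeq Csta2). Each transcript was cut into all windows of 100 bases, the read length, and each window was compared with the other transcripts of the cluster. The share of windows within 2 mismatches of another gene was 57.5% for Gm5483, 40.3% for Stfa2l1, 39.5% for Stfa1 and 30.6% for Stfa2. For Stfa3 and Gm5416 it was 0, and their nearest windows elsewhere in the cluster differed at 6 bases or more. Counts of Stfa3 and Gm5416 are therefore the least exposed to reads of another cluster gene, and counts of the other 4 may include some.

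**Figure D1:**
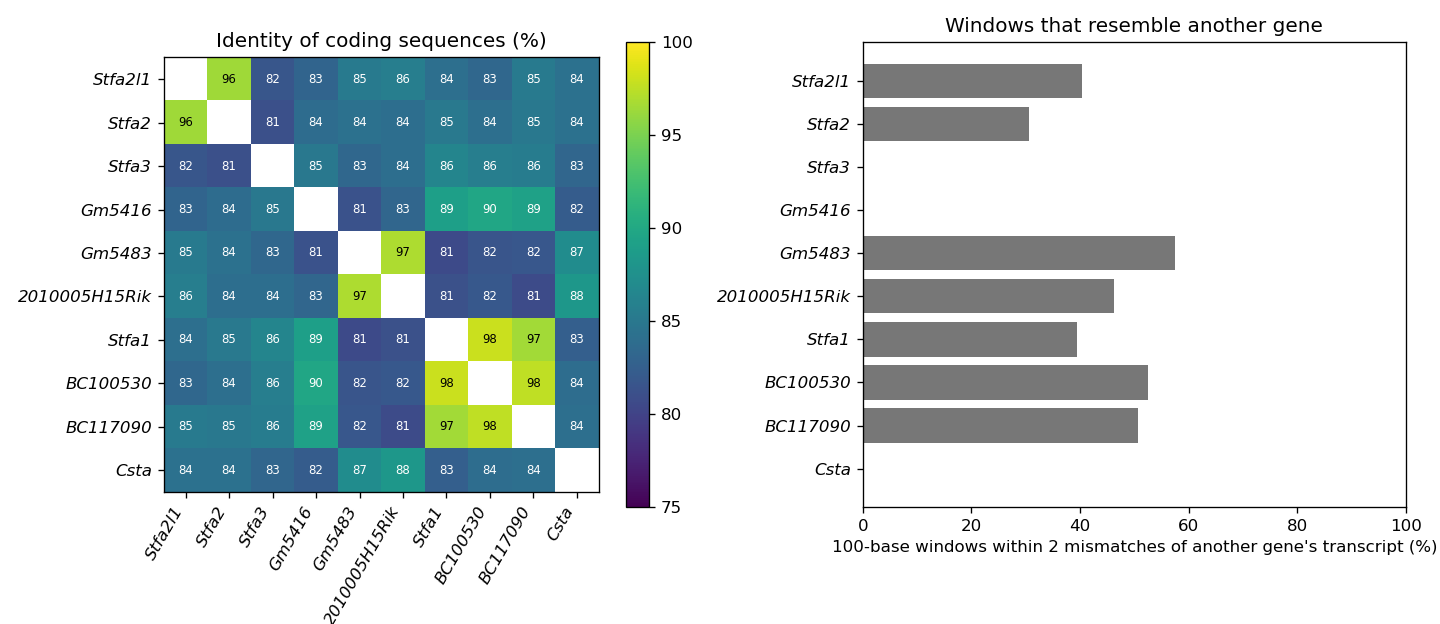
Identity of the coding sequences of the 10 cluster genes in percent of aligned bases for each pair (left, colour and printed value). Bars on the right give the percentage of each gene's 100-base transcript windows that lie within 2 mismatches of another cluster transcript. Gm5483 has the longest bar at 57.5%, and Stfa3, Gm5416 and Csta have none.

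Gene counts summed to between 13421100 and 16613837 in ccl5 libraries and between 15507823 and 18445095 in control libraries. Levels are given as CPM, counts scaled to library size with TMM, a method that corrects library totals for a few dominant genes. At these depths 3 counts in a library are worth between 0.160 and 0.273 CPM, and lower values are not told apart from 0. The libraries did not sort by treatment. Over the 12174 genes tested, log2 CPM differed by a root mean square of 0.23 between ccl5 replicate 2 and control replicate 3, 0.32 between ccl5 replicates 1 and 3, and 0.23 between control replicates 1 and 2. The other 12 pairs differed by between 1.11 and 1.47. Whether the labels or a shared source account for the closeness of ccl5 replicate 2 and control replicate 3 was not tested, and each mean and fold change below takes the labels as given. Counts of no pair agreed within sampling noise, so no libraries were merged. With edgeR's quasi-likelihood test, 0 of the 12174 genes passed an adjusted p of 0.05 (0%). There were 1663 genes at an unadjusted p under 0.05, and DESeq2 called 199 genes.

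Summed over the 6 genes, stefin A was among the most abundant transcripts of control replicates 1 and 2 and far lower in every other library. The sum was 7.82, 105 and 8.36 CPM in ccl5 replicates 1 to 3, against 2689, 2596 and 96.5 CPM in control replicates 1 to 3. By counts, the highest single member there, Gm5483, ranked 119th and 129th in control replicates 1 and 2. The sum ranked 9099th, 1760th and 8885th among single genes in the ccl5 libraries, against 19th, 20th and 1948th in the control libraries. The groups overlapped, since ccl5 replicate 2 lay above control replicate 3 by a ratio of 1.08. Control replicate 1 was 27.9 times control replicate 3, so the controls differed among themselves far more than ccl5 replicate 2 and control replicate 3 did.

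The 6 genes took 0.000662%, 0.0124% and 0.000685% of all counts in ccl5 replicates 1 to 3, against 0.274%, 0.264% and 0.0113% in control replicates 1 to 3. The means were 40.3 ± 55.8 CPM with CCL5 and 1794 ± 1471 CPM without it (SD, n = 3 each), with a fitted log2 fold change of -5.47 (SE 1.74), ccl5 over control. In the 3 primary transplant libraries alone, ccl5 replicates 2 and 3 against control replicate 3, the log2 fold change of the sum was -0.77 (SE 1.44). With ccl5 replicate 2 alone left out it was -7.78 (SE 1.78). Since control replicates 1 and 2 have no transplant label, treatment and transplant cannot be told apart for them. In bulk RNA, fewer cells that carry these transcripts and less of the transcript per cell cannot be told apart.

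**Figure D2:**
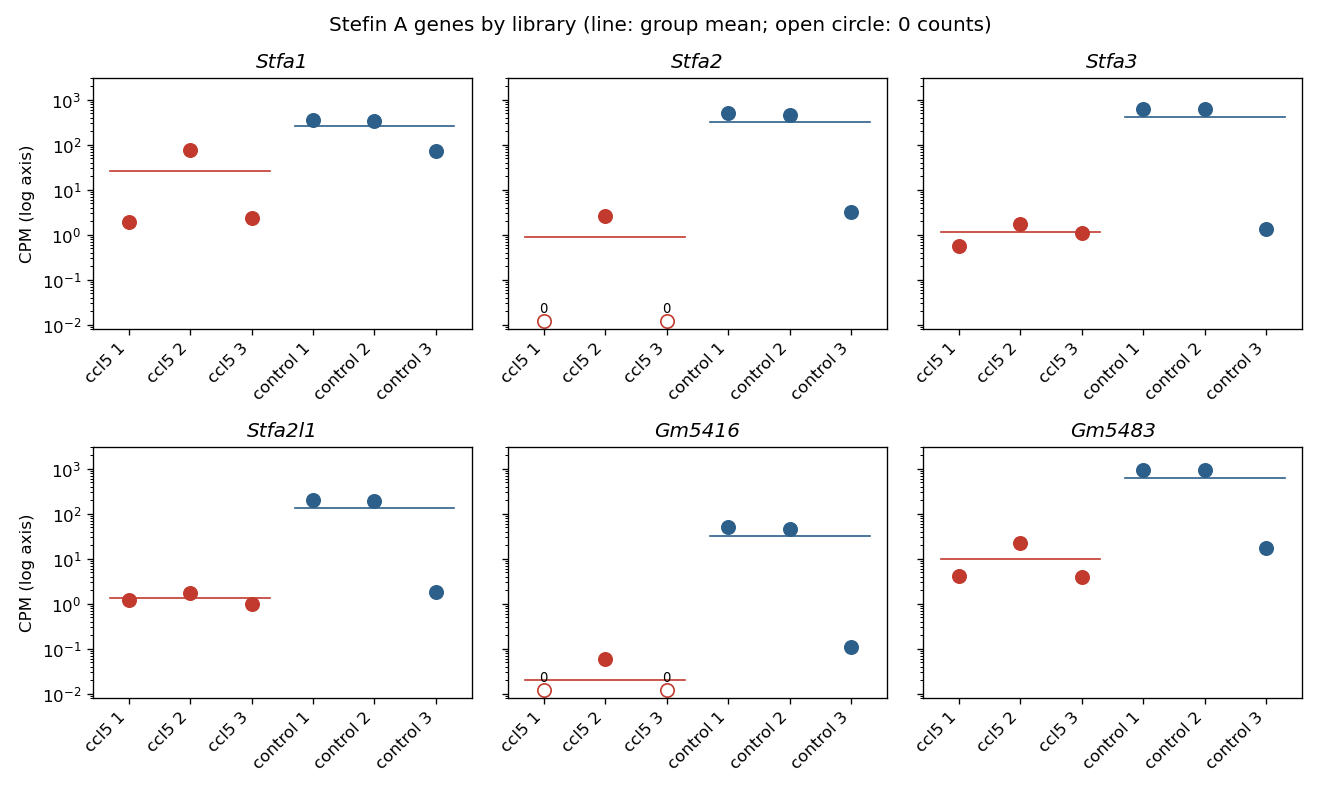
Level of each stefin A gene in CPM (log axis) in each of the 3 ccl5 libraries (red, left) and the 3 control libraries (blue, right). Lines are group means and open circles mark libraries with 0 counts. Control replicates 1 and 2 lie at the top of each panel, and control replicate 3 lies beside ccl5 replicate 2.

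Stfa3, a copy whose windows resembled no other transcript of the cluster, had the lowest fitted fold change of all 12174 genes tested. It measured 0.569, 1.77 and 1.09 CPM in ccl5 replicates 1 to 3, against 622, 628 and 1.32 CPM in control replicates 1 to 3. Control replicate 3 lay between the ccl5 libraries, so the groups overlapped. Its means were 1.14 ± 0.602 CPM with CCL5 and 417 ± 360.0 CPM without it (SD, n = 3 each), and its log2 fold change was -8.49 (SE 2.17). In the primary transplant libraries alone the value was 0.11 (SE 1.32). Control replicates 1 and 2 carried 9818 and 11793 reads of Stfa3, while control replicate 3 carried 24.

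Stfa2, which shares 96.5% of its coding letters with Stfa2l1, was at 0 in 2 of the ccl5 libraries. It measured 0, 2.68 and 0 CPM in ccl5 replicates 1 to 3, against 502, 460 and 3.19 CPM in control replicates 1 to 3. The groups did not overlap, but ccl5 replicate 2 with 44 reads and control replicate 3 with 58 reads lay side by side. The 0 counts of ccl5 replicates 1 and 3 allow a level of up to 0.213 and 0.273 CPM. Its means were 0.895 ± 1.55 CPM with CCL5 and 322 ± 277 CPM without it (SD, n = 3 each), and its log2 fold change was -8.39 (SE 2.44). Without ccl5 replicate 2 the fitted value was -15.28 (SE 4.44), which depends on the prior count, since the ccl5 libraries left are at 0.

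Stfa2l1 was detected in every library. It measured 1.21, 1.77 and 0.9998 CPM in ccl5 replicates 1 to 3, against 201, 193 and 1.81 CPM in control replicates 1 to 3. The gap between the groups was narrow, with 29 reads in ccl5 replicate 2 and 33 in control replicate 3. Its means were 1.33 ± 0.398 CPM with CCL5 and 132 ± 113 CPM without it (SD, n = 3 each), and its log2 fold change was -6.61 (SE 1.67). In ccl5 replicates 1 and 3 Stfa2l1 had 17 and 11 reads where its closest copy Stfa2 had 0.

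Gm5416, named Csta3 in RefSeq, was the least abundant of the 6 genes. It had 0, 1 and 0 reads in ccl5 replicates 1 to 3, against 818, 884 and 2 reads in control replicates 1 to 3. Only control replicates 1 and 2, at 51.8 and 47.1 CPM, were above the level of 3 counts. It failed the filter on low counts, since fewer than 3 libraries had enough reads, and so has no fold change in the edgeR fit.

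Gm5483, named Cstdc4 in RefSeq, was the most abundant of the 6 genes in control replicates 1 and 2. It measured 4.13, 22.0 and 3.91 CPM in ccl5 replicates 1 to 3, against 949, 931 and 17.3 CPM in control replicates 1 to 3. Here ccl5 replicate 2 lay above control replicate 3, so the groups overlapped. Its means were 10.02 ± 10.4 CPM with CCL5 and 633 ± 533 CPM without it (SD, n = 3 each), and its log2 fold change was -5.97 (SE 1.66).

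Stfa1 stood apart from the other 5 genes by its level in ccl5 replicate 2 and control replicate 3. It measured 1.92, 76.4 and 2.36 CPM in ccl5 replicates 1 to 3, against 363, 337 and 72.7 CPM in control replicates 1 to 3. Control replicate 1 was 4.998 times control replicate 3 for Stfa1, against 54.9 times for Gm5483, 111 times for Stfa2l1, 158 times for Stfa2 and 472 times for Stfa3. Within the ccl5 group, replicate 2 was 39.8 times replicate 1 for Stfa1, against 5.34 times for Gm5483, 3.11 times for Stfa3 and 1.46 times for Stfa2l1. No ratio could be formed for Stfa2, with 44 reads against 0, or for Gm5416, with 1 against 0. The rise of Stfa2 may thus be as steep as that of Stfa1. The Stfa1 means were 26.9 ± 42.8 CPM with CCL5 and 258 ± 161 CPM without it (SD, n = 3 each). The log2 fold change of Stfa1 was -3.26 (SE 1.58). Without ccl5 replicate 2 that value was -6.90 (SE 0.97).

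Among the 5 genes with a fitted value, the log2 fold change was below -4 in 4, Stfa1 being the exception, where 0.189% of all genes tested were below -4. Groups did not overlap, with ccl5 lower, for Stfa2 and Stfa2l1 among the 5 genes tested, where 7.49% of all genes tested were lower in this way. For Gm5416, ccl5 replicate 2 and control replicate 3 lay under the level of 3 counts and are not told apart. These shares describe the genes as chosen, since the choice was made with this contrast known.

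Since the differences between libraries were unequal among the 6 genes, the reads were split among them in 3 different ways. Stfa1 took 24.5%, 73.0% and 28.3% of the summed reads in ccl5 replicates 1 to 3, against 13.5%, 12.97% and 75.4% in control replicates 1 to 3. Gm5483 took 52.7%, 21.04% and 46.7% in the ccl5 libraries, against 35.3%, 35.9% and 17.9% in the control libraries. Thus Stfa1 led in ccl5 replicate 2 and control replicate 3, and Gm5483 led in the other 4 libraries. In ccl5 replicates 1 and 3 the Gm5483 lead rests on 58 and 43 reads. Its near copy 2010005H15Rik, which is outside the sum, had 86 and 69 reads there. Whether some of the Gm5483 reads came from that copy was not tested.

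Stfa3 took 7.27%, 1.69% and 13.04% of the summed reads in ccl5 replicates 1 to 3, against 23.1%, 24.2% and 1.37% in control replicates 1 to 3. Stfa2 took 0%, 2.56% and 0% in the ccl5 libraries, against 18.7%, 17.7% and 3.30% in the control libraries. The split was nearly the same in control replicates 1 and 2, and nearly the same in ccl5 replicate 2 and control replicate 3. In ccl5 replicates 1 and 3 it rests on 110 and 92 reads. The exact 95% binomial interval of the Stfa1 share was 16.8% to 33.7% in ccl5 replicate 1 and 19.4% to 38.6% in ccl5 replicate 3, which covers counting error only. Neither interval reaches the Stfa1 share of ccl5 replicate 2, 70.8% to 75.1%, or that of control replicate 1, 13.2% to 13.8%.

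**Figure D3:**
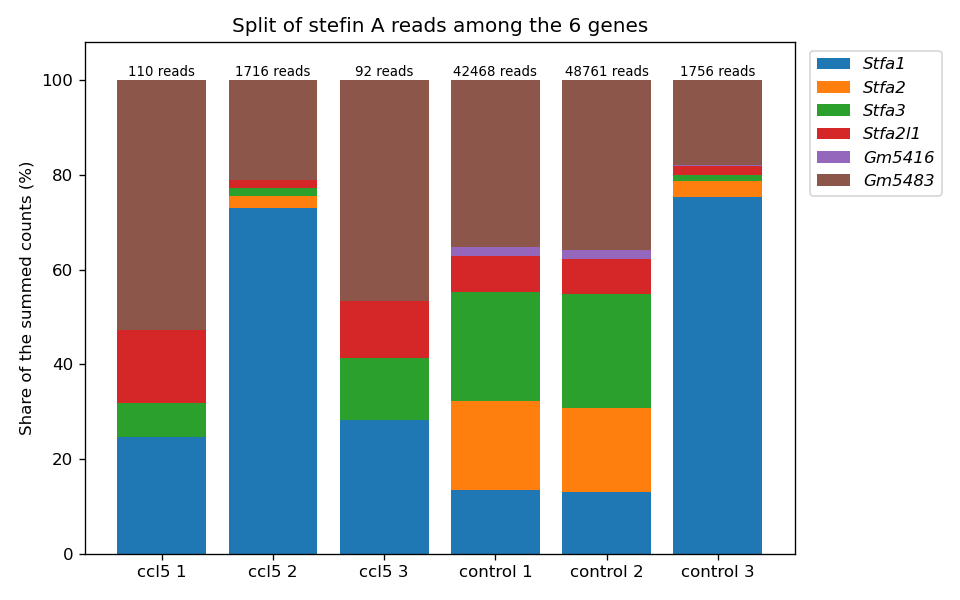
Share of the summed stefin A reads taken by each of the 6 genes, in percent, in the 3 ccl5 libraries (left) and the 3 control libraries (right), with the number of summed reads above each bar. Stfa1 takes 73.0% in ccl5 replicate 2 and 75.4% in control replicate 3, and between 12.97% and 28.3% in the other 4 libraries.

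Levels per kb of exon allow the genes to be ranked within a library. In control replicates 1 and 2 the order was the same: Gm5483 had 2298 and 2255 CPM per kb, Stfa3 1509 and 1524, Stfa2 1188 and 1087, and Stfa1 870 and 805. Stfa2l1 followed with 485 and 466 CPM per kb and Gm5416 with 176 and 160. Each neighbouring pair in this order was farther apart than the same gene was between these libraries. In ccl5 replicate 2 and control replicate 3 the order was another: Stfa1 came first with 183 and 174 CPM per kb, Gm5483 second with 53.3 and 41.9, and the other 4 genes lay between 0.207 and 7.53.

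The likeness of the 6 profiles was measured as the root mean square difference over the 6 libraries between log2 CPM values (prior count 2), each centred on its mean. Stfa3 and Gm5416 were the most alike pair at 0.48, followed by Stfa2l1 with Gm5416 at 0.59 and Stfa2l1 with Gm5483 at 0.68. Stfa1 and Stfa3 were the least alike pair at 2.64. Low reads in ccl5 libraries enter these values through the prior count. Stfa2 and Stfa2l1, the closest copies in sequence, differed by 2.02, so the 2 orders of likeness were not the same.

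The rest of the cluster holds 4 more genes in the table, which is 4 of the 11 symbols looked up: BC100530, BC117090, 2010005H15Rik and Csta. Of these 3 were tested, 0 passed in either direction and 3 had a log2 fold change below 0, with a median of -4.73, where the median of all genes tested was -0.01. That median was -0.78 in the primary transplants alone and -11.28 without ccl5 replicate 2, where the ccl5 libraries left held 0 to 4 reads of BC100530 and BC117090. BC100530, the nearest relative of Stfa1, measured 0.284, 57.5 and 0.0909 CPM in ccl5 replicates 1 to 3, against 774, 713 and 53.6 CPM in control replicates 1 to 3. BC117090 measured 0, 3.35 and 0 CPM in the ccl5 libraries, against 53.0, 36.4 and 2.91 CPM in the control libraries. Both resembled Stfa1 in keeping reads in ccl5 replicate 2 and control replicate 3, and the centred profiles differed from that of Stfa1 by 0.67 for BC117090 and 1.69 for BC100530. Gm5483, at 1.47, was closer to Stfa1 in profile than BC100530 was. These differences depend in part on the prior count, since ccl5 replicates 1 and 3 held 0 to 4 reads of BC100530 and BC117090.

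2010005H15Rik, the nearest relative of Gm5483, measured 6.12, 2.62 and 6.27 CPM in ccl5 replicates 1 to 3, against 342, 325 and 2.36 CPM in control replicates 1 to 3. It was thus the only one of the 8 tested cluster genes with its lowest values in ccl5 replicate 2 and control replicate 3. These held 43 reads each, so they are not told apart, and the groups overlapped. The log2 fold change of 2010005H15Rik was -5.48 (SE 1.65), beside -4.73 (SE 2.30) for BC100530 and -4.72 (SE 1.88) for BC117090. Csta, named Csta1 in RefSeq and the outermost gene of the cluster, had at most 2 reads in any library and was not tested.

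Beyond the cluster, the 5 nearest tested genes on each side gave a median log2 fold change of -0.14, with 5 above 0, 5 below 0 and 0 passing. On the side of Stfa2l1 these were Parp9, Kpna1, Wdr5b, Fam162a and Ccdc58, and on the side of Stfa3 they were Cd86, Eaf2, Iqcb1, 4930565N06Rik and Golgb1. Fam162a, which encodes a mitochondrial protein, measured 30.9, 27.2 and 31.7 CPM in ccl5 replicates 1 to 3, against 215, 195 and 31.2 CPM in control replicates 1 to 3. Ccdc58, its neighbour towards the cluster, measured 13.2, 14.1 and 15.7 CPM in the ccl5 libraries, against 38.7, 37.3 and 16.9 CPM in the control libraries. As for stefin A, both were highest in control replicates 1 and 2, with log2 fold changes of -2.30 (SE 0.69) and -1.11 (SE 0.34). For the other 8 flanking genes the log2 fold change lay between -0.48 and 0.46. Among these, Kpna1 was also highest in control replicates 1 and 2, at 165 and 179 CPM against at most 129 CPM elsewhere. Its log2 fold change was -0.40 (SE 0.35).

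**Figure D4:**
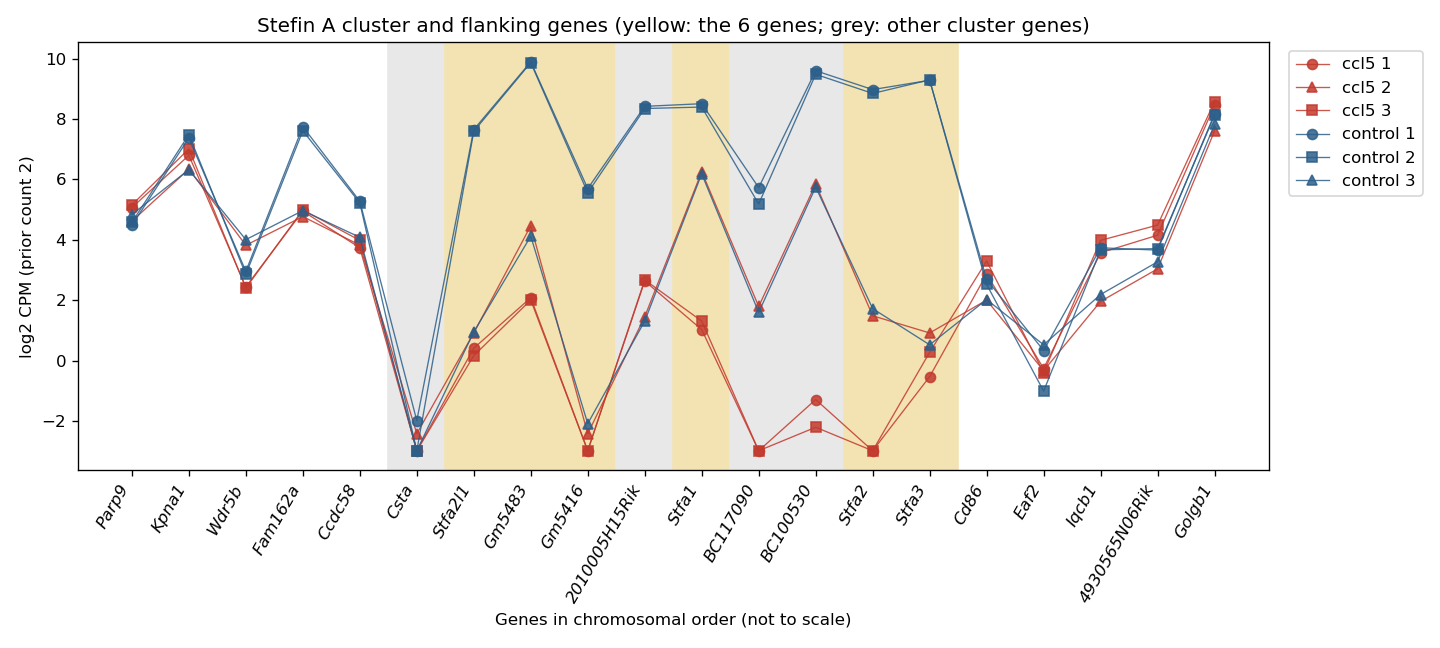
Level in log2 CPM (prior count 2) of the cluster genes and the 5 nearest tested genes on each side, in chromosomal order and not to scale, with 1 line for each ccl5 library (red) and each control library (blue). Control replicates 1 and 2 stand above the other libraries over the cluster except at Csta, and also at Kpna1, Fam162a and Ccdc58.

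Stefins act on cysteine cathepsins, so the proteases and the other cystatins were set beside them. Of the 10 cysteine cathepsins looked up, 9 were tested, and 0 passed in either direction. The log2 fold change was above 0 in 7 and below 0 in 2, with a median of 1.64, where that of all genes tested was -0.01. Ctsb, which encodes cathepsin B, measured 19221, 1935 and 18998 CPM in ccl5 replicates 1 to 3, against 4092, 4055 and 1912 CPM in control replicates 1 to 3. Ctsh, which encodes cathepsin H, measured 797, 124 and 918 CPM in the ccl5 libraries, against 145, 137 and 129 CPM in the control libraries. The cathepsins were thus highest where summed stefin A was lowest, in ccl5 replicates 1 and 3, for Ctsb, Ctsh, Ctsk, Ctsl, Ctso, Ctss and Ctsz. Ctsc, which encodes the dipeptidyl peptidase that activates granule proteases, and Ctsf had log2 fold changes of -0.78 (SE 0.46) and -0.17 (SE 0.51). The groups overlapped for each of the 9.

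In the 4 libraries left without ccl5 replicates 1 and 3, the cathepsin median was -0.15, while the log2 fold change of summed stefin A was -4.10 (SE 2.33). That fit has 1 ccl5 library, which is assumed to vary like the controls. Between control replicates 1 and 3, where summed stefin A differed by a ratio of 27.9, Ctsb, Ctsc, Ctsl, Ctso and Ctsz were higher in control replicate 1. Ctsf, Ctsk and Ctss were higher in control replicate 3, and Ctsh was nearly level at 145 and 129 CPM.

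Of 15 other cystatin genes, 11 had at most 3 reads in any library and 3 were tested, with 0 passing, 2 above 0, 1 below 0 and a median of 0.55. Cstb, which encodes stefin B, the other intracellular stefin, measured 408, 184 and 485 CPM in ccl5 replicates 1 to 3, against 262, 269 and 203 CPM in control replicates 1 to 3. Cst3, which encodes the secreted inhibitor cystatin C, measured 962, 369 and 1069 CPM in the ccl5 libraries, against 421, 401 and 392 CPM in the control libraries. Both were highest where stefin A was lowest, and their log2 fold changes were 0.55 (SE 0.38) and 0.98 (SE 0.41). Cst7, which encodes cystatin F, an inhibitor that reaches granules and lysosomes, measured 22.8, 27.7 and 20.3 CPM with CCL5, against 107, 113 and 25.3 CPM in controls. It was the tested cystatin with a pattern like that of stefin A, with a log2 fold change of -1.79 (SE 0.56), and it is also 1 of the primary granule markers read below.

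The 8 genes outside the cluster with the smallest root mean square difference from summed stefin A, counting genes whose average log2 CPM was 1 or more and leaving predicted genes aside, included Dmpk, Rgs9, Niacr1, Atg9b, Upp1, Crtac1 and Kif21a. The differences of the 8 ran from 0.78 to 1.16 over the 6 libraries, where the median over 10273 genes was 3.43. Dmpk, a serine/threonine kinase, measured 0.427, 1.65 and 0.0909 CPM in ccl5 replicates 1 to 3, against 38.1, 44.9 and 1.43 CPM in control replicates 1 to 3. Atg9b, a gene of the autophagy pathway, measured 0.640, 1.10 and 0.0909 CPM in the ccl5 libraries, against 66.4, 63.9 and 0.989 CPM in the control libraries. Niacr1, an older name of the niacin receptor gene Hcar2, measured 0, 0.427 and 0 CPM in the ccl5 libraries, against 91.1, 87.8 and 0.659 CPM in the control libraries. Like stefin A, the 8 genes were highest in control replicates 1 and 2, and their values in ccl5 replicates 1 and 3 rest on 0 to 9 reads each. With a prior count of 5, 7 of the 8 genes were chosen again.

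**Figure D5:**
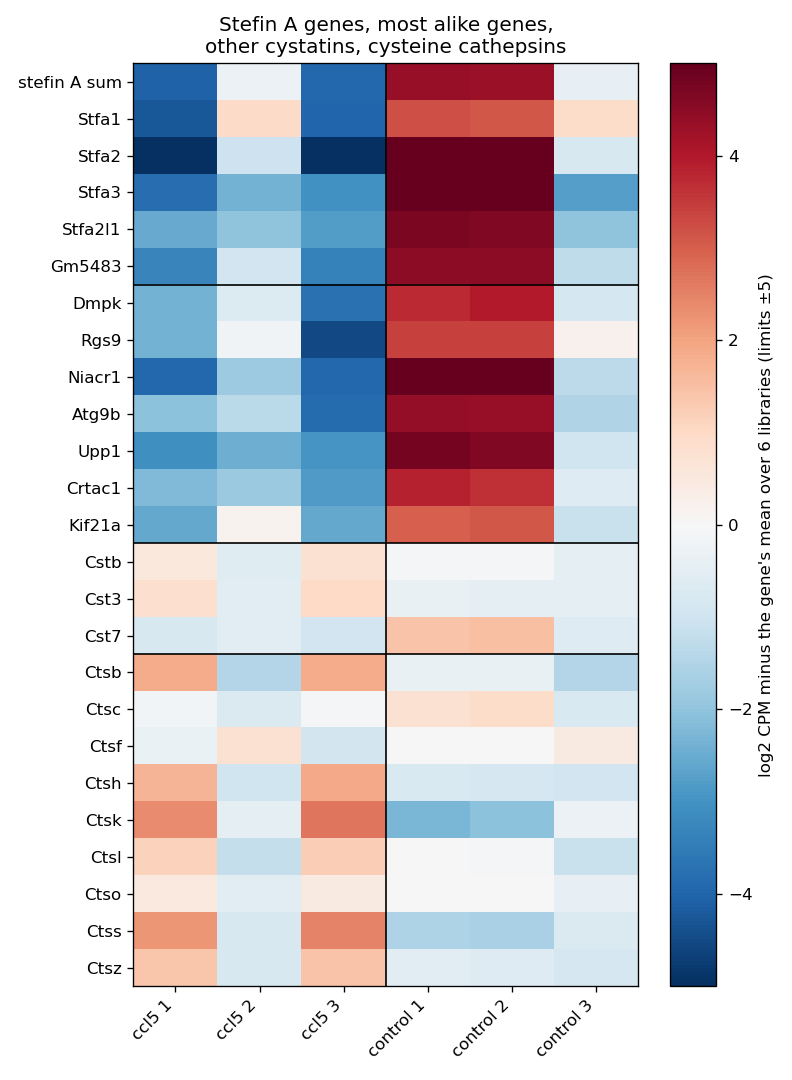
Log2 CPM of each gene minus its mean over the 6 libraries (colour, limited to ±5), with the 3 ccl5 libraries in the left columns and the 3 control libraries in the right columns. From the top, the blocks are stefin A (the sum and the 5 tested genes), 7 of the most alike genes, the tested cystatins and the tested cysteine cathepsins. Stefin A and the 7 genes are highest in control replicates 1 and 2, and most cathepsins in ccl5 replicates 1 and 3.

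Neutrophil markers were read alongside, since stefin A copies are known from neutrophils, and keratinocyte markers, since stefin A is known from skin. The 7 mature neutrophil markers found of 9 summed to between 1555 and 3040 CPM in ccl5 libraries and between 3133 and 18780 CPM in control libraries. Most of that sum in control replicates 1 and 2 was Slpi, a secreted protease inhibitor, at 1467, 392 and 1279 CPM in ccl5 replicates 1 to 3, against 17922, 18035 and 450 CPM in control replicates 1 to 3. Slpi was thus highest in the same libraries as stefin A. So was Il1f9, at 26.3, 40.1 and 25.6 CPM in ccl5 replicates 1 to 3, against 58.8, 61.8 and 42.5 CPM in control replicates 1 to 3. The other markers of the list with more than 8 reads were not. S100a8, which encodes a calcium-binding protein of neutrophils, measured 6.12, 1216 and 6.91 CPM in ccl5 replicates 1 to 3, against 450, 491 and 1244 CPM in control replicates 1 to 3. S100a9, its partner, measured 2.56, 1188 and 2.91 CPM in the ccl5 libraries, against 114, 122 and 1185 CPM in the control libraries. Both were highest in ccl5 replicate 2 and control replicate 3, and so was Cxcr2, at 10.8 and 10.3 CPM. Csf3r was lowest in control replicates 1 and 2, and Retnlg had at most 8 reads in any library. The 8 secondary and tertiary granule markers summed to 554, 6011 and 637 CPM with CCL5, against 165, 151 and 5842 CPM in controls. Their sum was lowest in control replicates 1 and 2, where stefin A was highest, which rests on Mmp8 and Chi3l3. The other 6 of the list, among them Ngp at 1.35, 4899 and 3.27 CPM with CCL5 against 28.7, 21.03 and 4707 CPM in controls, were lowest in ccl5 replicates 1 and 3. The 6 primary granule markers found of 7 summed to 360, 7895 and 257 CPM with CCL5, against 2453, 2492 and 7777 CPM in controls.

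The 9 monocyte and macrophage markers found of 10 summed to between 2044 and 3989 CPM in ccl5 libraries and between 2172 and 3463 CPM in control libraries. Of the 6 epithelial markers Krt5 and Krt1 were at 0 in every library and Krt14 had at most 1 read, while Cdh1 reached 14.1 and 13.6 CPM in control replicates 1 and 2 and at most 2.84 CPM elsewhere. The part of these marker differences in the stefin A result was not tested.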

How the data were processed

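Polyadenylated RNA of 6 libraries was sequenced as 100-base single-end reads with a NEBNext Ultra kit, per the labels' protocols. The deposited values are raw read counts per gene, made with featureCounts 1.5.1 on primary alignments with the UCSC mm10 annotation and no strand option, per the file headers. The submitters' processing notes also list Trimmomatic, Bowtie, TopHat and DESeq2 and give no versions. A read that fits several copies was counted at its primary alignment, which can move reads between stefin A copies, and reads of overlapping genes on opposite strands were not separated. Exon lengths in the deposited table gave CPM per kb.

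The 6 genes and the gene lists were chosen with earlier results of these data known. Counts were scaled by TMM and filtered with filterByExpr (minimum count 10), leaving 12174 of 18580 genes with reads. The comparison used edgeR 4.0.16 (R 4.3.3) and its quasi-likelihood test, two-sided and Benjamini-Hochberg adjusted over all genes tested, with a threshold of 0.05 and no covariate. Each SE was taken from the fold change and its F value. The sum of the 6 genes entered the same fit as 1 added row. The procedure was tested on simulated data with known changes. It recovered 0 of 49 changes of 2-fold, 22 of 50 of 4-fold, 42 of 47 of 8-fold and 44 of 50 of 16-fold. It also called 7 unchanged genes. In the real libraries 23 genes had a log2 fold change below -4 and 0 passed, so these rates do not carry over to them. Depth was between 13421100 and 18445095 counts, and intervals on shares are exact binomial at 95%.

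Named genes were the 6 genes, the tested genes of 3 lists (other cluster genes, other cystatins, cysteine cathepsins), the 5 nearest tested genes on each side, the 8 most alike genes and marker genes that move with a result. A gene that the rule names is not reported here. Alternatives were DESeq2 size factors, library totals, no filter, a filter of CPM over 1 in at least 3 libraries, DESeq2 1.42.0, limma-voom with quality weights (limma 3.58.1), leaving out each library, the primary transplants alone, ccl5 replicates 1 and 3 left out, the 6 genes replaced by their sum, shares per length and a prior count of 5. Sequences and names came from RefSeq (GRCm38.p6) and coding lengths from GENCODE transcripts.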

Additional observations from a re-analysis of the deposited data

How the results depend on the processing

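The log2 fold change of summed stefin A was -5.47 and stayed below 0 in 15 of 15 alternatives. It was -0.77 in the primary transplants alone and -8.23 with limma-voom and quality weights, and from -7.78 (without ccl5 replicate 2) to -4.98 (without ccl5 replicate 1) when 1 library was left out. The cause was not tested. Stfa3 was the 1 gene whose sign changed, to 0.11 in the primary transplants, where the other 4 fitted genes lay between -1.22 and -0.39. The count of genes past the threshold was 0, against 199 with DESeq2 (118 higher, 81 lower) and 8097 with limma-voom (4015 higher, 4082 lower). Leaving out 1 library gave 0 to 3299, with 3299 without ccl5 replicate 2, 237 without control replicate 3 and 0 in the other 4 cases. With ccl5 replicates 1 and 3 left out, the medians were -0.41 for other cystatins and -0.15 for cathepsins. Library totals in place of TMM shifted the median of all genes by -0.16. Per length, the Gm5416 share was 2.70% and 2.54% in control replicates 1 and 2. No paired analysis was possible because the ccl5 labels carry no replicate numbers that match those of the controls. Levels at or under 3 counts are not told apart from 0.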
